A study of Homo sapiens with 22 samples.

Results

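MITF, its 3 relatives TFE3, TFEB and TFEC, and the co-activator gene PPARGC1A were followed through every cell and every chromatin library of a melanoma study. These 5 genes were taken by symbol, and all 5 were found in each gene table, which held 33538 genes in the first single-cell experiment and 36601 in the others. The study used WM989 and WM983B, melanoma lines that were each held as a clone derived from a single cell. Cultures of the single-cell experiments were started from many sorted cells of such a clone. Cells that had seen no BRAF or MEK inhibitor were classed as drug-susceptible or primed, the latter being more likely to survive these drugs. The first experiment held 12531 WM989 cells in 8 10x wells of 2 replicates, grown from a mixed sort or from cells sorted for high EGFR and NGFR after transduction with lentiviral lineage barcodes, and which wells held which sort was not given in the sources used here. The cells of a culture were loaded on 2 wells of the 10x chip, so the 8 wells include repeat loadings of the same cultures and are fewer than 8 separate samples. WM983B, untreated, gave 1449 cells in 1 library. The third experiment held 40021 WM989 cells, also transduced with lentiviral lineage barcodes. Its treatments, given for 5 days, were the recombinant cytokine TGFB1, the TGF-β receptor inhibitor LY2109761 (TGFBRi) and the PI3K inhibitor GDC-0941 (PI3Ki). In it 1 culture per replicate had been split over 4 plates, which were left untreated or received 1 of these. This gave 2 libraries per treatment, r1 and r2 in the cell annotation, while the sample labels name the pair Mix and Primed and the sources used here do not link these names. The ATAC-seq libraries came from untreated WM989 cells sorted as EGFR-high, NGFR-high, EGFR/NGFR-high or negative for both markers, with 3 libraries per sort, and the negative sort is labelled Mix. No group was an animal or a patient sample.

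MITF, TFE3, TFEB and TFEC encode basic helix-loop-helix leucine zipper proteins that pair with each other and bind E-box DNA. MITF is the master regulator of the melanocyte lineage and drives the pigment genes, and its shortest form starts from a promoter used in melanocytes that answers to SOX10, PAX3, LEF1 and CREB. TFE3 and TFEB are held in the cytoplasm by mTORC1 at the lysosome and, when released, switch on genes of lysosomes and autophagy. PPARGC1A encodes a transcriptional co-activator that raises mitochondrial genes, and MITF is known to activate it in a part of melanomas. Since the counts come from the 3′ ends of transcripts, they do not tell the forms of MITF apart, and a chromatin peak at a start site shows that the site is open but not which form is made.

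In the GENCODE annotation of hg38 MITF lies at chr3:69739456-69968336 on the plus strand, and PPARGC1A at chr4:23755041-23904089, TFEB at chr6:41683978-41736259, TFEC at chr7:115935148-116159896 and TFE3 at chrX:49028726-49043410, all on the minus strand. RefSeq gives 11 start sites for the 5 genes in GRCh38.p14. The 250 bases before 4 of them are shown because the chromatin data bear on them, with matches to 6 motifs in capitals. The melanocyte start of MITF, in the window chr3:69936342-69936591 on the plus strand, holds the CRE TGACGTCA and the TCF/LEF site CTTTGAT, which occur in 1.65% and 2.26% of 35116 RefSeq promoter windows of this length. The start of MITF farthest upstream (chr3:69739214-69739463, plus strand) holds the SOX site ACAATG, found in 9.29%. The upstream start of PPARGC1A (chr4:24472906-24473155, minus strand) holds the E-box CACGTG, found in 6.34%. This RefSeq start lies outside the GENCODE span of the gene given above. The second start of PPARGC1A (chr4:23881102-23881351, minus strand) holds the E-box CATGTG, found in 9.42%, and a SOX site on the opposite strand, which is printed as CATTGT. Both strands were searched, CATGTG lies inside the M-box TCATGTG, which was found in 2.52% of windows and in none of these 4, and a match is a run of letters and not a measured binding site. No motif was found before the start of TFE3 or the 3 starts of TFEB.
MITF, melanocyte start: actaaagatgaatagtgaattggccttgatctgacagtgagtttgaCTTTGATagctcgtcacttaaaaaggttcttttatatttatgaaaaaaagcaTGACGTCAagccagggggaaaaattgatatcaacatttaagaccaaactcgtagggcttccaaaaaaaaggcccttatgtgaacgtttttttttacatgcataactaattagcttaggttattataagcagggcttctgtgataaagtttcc
MITF, far upstream start: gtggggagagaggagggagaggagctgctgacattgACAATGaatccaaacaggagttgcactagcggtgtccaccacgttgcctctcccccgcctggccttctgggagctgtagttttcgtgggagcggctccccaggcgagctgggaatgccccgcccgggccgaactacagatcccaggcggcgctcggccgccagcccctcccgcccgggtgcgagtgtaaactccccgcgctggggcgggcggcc
PPARGC1A, upstream start: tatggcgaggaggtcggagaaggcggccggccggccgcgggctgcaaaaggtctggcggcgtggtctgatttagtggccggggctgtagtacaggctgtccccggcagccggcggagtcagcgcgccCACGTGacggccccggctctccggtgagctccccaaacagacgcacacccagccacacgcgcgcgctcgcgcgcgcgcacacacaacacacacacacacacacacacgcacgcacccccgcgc
PPARGC1A, second start: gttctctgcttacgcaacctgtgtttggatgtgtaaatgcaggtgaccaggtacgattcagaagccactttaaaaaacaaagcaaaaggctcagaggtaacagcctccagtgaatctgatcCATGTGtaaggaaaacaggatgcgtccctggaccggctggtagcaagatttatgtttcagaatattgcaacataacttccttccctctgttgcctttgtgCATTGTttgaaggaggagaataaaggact

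Depth ranged from 35882876 to 177318308 UMIs per well in the first experiment and from 70239657 to 122420544 per library in the treatment experiment, and the WM983B library held 102738398. Levels are given as CPM, the UMIs of a gene per 1000000 UMIs of the cells summed, with exact 95% Poisson intervals that cover counting error only. The classes and clusters were called by the authors from these same counts, so differences between them are a description with no test. Cell barcodes that occurred in more than 1 library belonged to 38 of the cells of the first experiment and to 388 of the treatment experiment. All 5 melanocyte markers were found in both classes and were 2-fold or more lower in primed WM989 cells of the first experiment. Among the 13194 genes that reached 1 CPM in either class there, 7.91% were lower by this much. PMEL, a melanosome protein, was at 2158 and 66.8 CPM in drug-susceptible and primed cells. In the treatment experiment, over the cells of all treatments, 4 of the 5 were 2-fold or more lower in primed cells (median log2 ratio of the 5, -1.82), beside 752 of 13459 genes. In WM983B 2 of the 5 were lower by this much (median, -0.12), beside 1.37% of 13769 genes. Of 9 markers of blood, endothelial and epithelial cells, PECAM1 was the one that passed 1 CPM in WM989, at 22.8 CPM in the primed and 0.183 CPM in the other cells of the first experiment, while the endothelial marker CDH5 was at 0.00520 and 0.00358 CPM and KRT5 at 0. In WM983B KRT14 was at 1.33 CPM in primed cells and the other 8 were below 1 CPM. The part of these markers in the differences below was not tested.

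The members differed between the classes in level and in direction. In the first experiment MITF was 6.86-fold lower in the 2843 primed cells than in the 9688 drug-susceptible cells (95% interval of the ratio 6.71 to 7.01), TFEB was 4.07-fold lower (3.30 to 5.06) and TFE3 was 2.62-fold higher (2.49 to 2.75). Pooled over wells, PPARGC1A was at nearly the same level in both classes, with a ratio of primed to drug-susceptible cells of 0.913 (0.851 to 0.979). In single wells this ratio ran from 0.507 to 1.12. TFEC was at the edge of detection, with 5 UMIs in drug-susceptible and 8 in primed cells. Of the 4 members that reached 1 CPM in either class, 1 was thus higher and 2 were lower in primed cells by 2-fold or more, beside 13.7% higher and 7.91% lower among the 13194 genes that reached that level.

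MITF, the lineage factor, was at 313 CPM (312 to 315) in drug-susceptible and 45.7 CPM (44.7 to 46.6) in primed cells. Over the 8 wells its drug-susceptible level had a lowest value of 269, a median of 302 and a highest value of 354 CPM, and its primed level 35.2, 57.4 and 97.8 CPM. The pooled level was lower in primed cells in 8 of 8 wells, which share cultures, with ratios of 0.113 to 0.332, while single cells of the classes overlapped, the lowest decile of drug-susceptible cells lying below 105 CPM and the highest decile of primed cells above 113 CPM. The median cell held 269 CPM of MITF in the drug-susceptible and 31.4 CPM in the primed class. After each cell was thinned to 10000 UMIs, 88.8% of drug-susceptible and 33.1% of primed cells kept a MITF UMI, against 99.5% and 78.5% before thinning. The wells held no cell type that lacks MITF, so no background share for these values could be given, and the part of free RNA in the primed level was not tested.

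The primed level of MITF was not the same in all wells. It was 35.2 CPM in well 1, 39.4 in well 2, 86.9 in well 3, 97.8 in well 4, 35.4 in well 5, 38.2 in well 6, 77.4 in well 7 and 75.3 in well 8. In the same order 56.9, 62.4, 7.87, 6.85, 79.7, 76.9, 9.17 and 9.42% of the cells of a well were primed, so wells with few primed and many drug-susceptible cells had the higher MITF level in their primed cells. The wells came from a mixed or an EGFR/NGFR-high sort, so the primed share of a well cannot be told apart from its sort. The primed cells of wells 3, 4, 7 and 8 lay mostly in cluster 8, which held 71.4, 73.4, 59.2 and 52.6% of them, while those of the other wells lay mostly in cluster 2, with 78.1, 73.9, 68.0 and 70.5%. Within cluster 2 MITF was at 32.0 CPM in well 1, 32.0 in well 2, 36.4 in well 5 and 38.9 in well 6, and at 63.7 to 80.5 CPM in the 7 to 28 cells of this cluster in the other wells. Cluster 9 had 39.0, 32.8, 27.7 and 32.4 CPM in wells 1, 2, 5 and 6 and 84.3, 78.7, 66.1 and 76.2 CPM in wells 3, 4, 7 and 8. Cluster 8 differed less, with 68.1, 100, 72.7 and 66.2 CPM in the former wells and 90.9, 106, 85.8 and 76.0 CPM in the latter. The former values rest on 13, 95, 17 and 19 cells of this cluster and the latter on 90, 193, 116 and 90.

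TFE3, a lysosome regulator of the same family, moved the other way. It was at 5.91 CPM (5.71 to 6.12) in drug-susceptible and 15.5 CPM (14.9 to 16.0) in primed cells, and in the wells at 5.03 to 7.38 CPM (median 6.31) and 9.31 to 18.7 CPM (median 15.1). It was higher in primed cells in 8 of 8 wells, with the same limit that wells share cultures, by 1.85 to 2.74 times. As a share of all UMIs of the 4 family members, TFE3 made up 1.84% in drug-susceptible and 25.1% in primed cells (24.3 to 25.9%), and MITF 97.5% and 74.0%. UMIs of a 3′ assay do not scale with transcript length, so these shares compare transcripts and not proteins.

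TFEB, the other lysosome regulator, was at 2.05 CPM (1.94 to 2.18) in drug-susceptible and 0.505 CPM (0.409 to 0.616) in primed cells. Its wells ran from 1.31 to 2.70 CPM (median 1.92) and from 0.238 to 1.03 CPM (median 0.487), and it was lower in primed cells in each well, with ratios of 0.153 to 0.506. TFEC, best known in macrophages and osteoclasts, gave 5 and 8 UMIs in the drug-susceptible and primed cells of the first experiment, 4 and 3 in those of WM983B and 1 and 3 in those of the treatment experiment. It was at 0.0742 CPM or less in each class, and the ratio in the first experiment, 4.65, had an interval from 1.34 to 18.1.

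PPARGC1A was at 5.98 CPM (5.78 to 6.19) in drug-susceptible and 5.46 CPM (5.14 to 5.80) in primed cells. The wells overlapped, with 4.45 to 7.69 CPM (median 6.26) in the former and 3.28 to 6.82 CPM (median 5.03) in the latter, and the ratio ran from 0.507 to 1.12 between wells. In wells 3, 4, 7 and 8, which had few primed cells, it was 0.860, 0.643, 0.507 and 0.707. In wells 1, 2, 5 and 6 it was 0.854, 1.05, 0.993 and 1.12, and these gave most of the primed cells in the pool. It did not follow the 6.86-fold difference of MITF between the same cells.

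**Figure D1:**
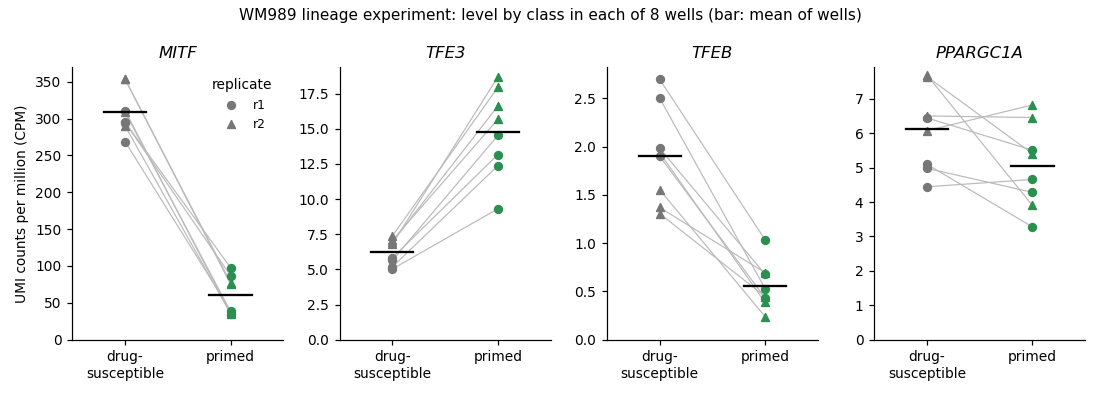
Levels of 4 members in the drug-susceptible and primed cells of the first WM989 experiment, in CPM on linear axes that start at 0. Each point is 1 of 8 wells (circles r1, triangles r2), which are in part repeat loadings of 1 culture, grey lines join the classes of a well and black bars are the means of the wells. MITF and TFEB sit lower and TFE3 higher in primed cells in all 8 wells, while the PPARGC1A points of the classes overlap between 4.45 and 6.82 CPM.

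The cell cycle differed between the classes, with 25.5% of drug-susceptible and 73.7% of primed cells called G1 by the authors. The median mitochondrial percent also moved with the class, at 14.1 and 7.95 in the first and 10.8 and 7.79 in the treatment experiment, against 7.99 and 7.95 in WM983B, and its part in the differences was not tested. Within G1, S and G2M cells MITF was lower in primed cells by 5.22, 5.29 and 8.27 times, and TFE3 was higher by 2.43, 2.24 and 2.85 times. In drug-susceptible cells MITF was at 224 CPM in G1, 275 CPM in S and 435 CPM in G2M, whereas in primed cells it stayed between 43.0 and 52.6 CPM. PPARGC1A had its highest level in G1, at 7.49 CPM in drug-susceptible and 6.51 CPM in primed cells. Within a phase its ratio of primed to drug-susceptible cells was 0.870 in G1, 0.545 in S and 0.503 in G2M, all below the ratio of 0.913 over all cells. The order of the phases was the same in the treatment experiment, with ratios of 0.903, 0.662 and 0.421 over the cells of all treatments. There the G1 ratio lay above the 0.745 over all its cells, and 3334 of its 4077 primed cells had received TGFB1.

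In WM983B, the other line, MITF and TFE3 had the same directions with smaller differences. MITF was at 392 CPM (387 to 397) in the 718 drug-susceptible and 197 CPM (193 to 201) in the 731 primed cells, a 1.99-fold lower level (1.94 to 2.04). TFE3 went from 6.70 to 9.83 CPM, 1.47-fold higher (1.28 to 1.69). PPARGC1A was at 10.2 CPM (9.33 to 11.1) in drug-susceptible and 5.37 CPM (4.74 to 6.06) in primed cells, 1.89-fold lower (1.63 to 2.20), so in this line it was lower in the same class as MITF. TFEB was at 1.97 and 1.72 CPM, with a ratio of 0.875 whose interval, 0.649 to 1.18, includes equal levels. No member passed a 2-fold difference in WM983B, beside 2.87% higher and 1.37% lower in primed cells among 13769 genes. Of the family's UMIs, TFE3 made up 1.67% in drug-susceptible and 4.71% in primed cells. This line gave 1 library, so no spread between libraries can be given. In the treatment experiment, the other WM989 data, MITF was at 339 and 76.8 CPM, TFE3 at 4.52 and 9.45 CPM, TFEB at 1.18 and 0.672 CPM and PPARGC1A at 5.31 and 3.96 CPM in drug-susceptible and primed cells of all libraries. These pools mix class with treatment, since 3334 of the 4077 primed but 7700 of the 35944 drug-susceptible cells had received TGFB1. In untreated libraries r1 and r2 the ratio of primed to drug-susceptible cells was 0.386 and 0.341 for MITF and 1.89 and 1.93 for TFE3. It was 1.31 and 0.680 for TFEB and 1.13 and 1.01 for PPARGC1A. The untreated libraries held only 94 and 165 primed cells. TFEB had too few counts in primed cells to be tested, so its ratios there show no direction. Over all libraries these ratios were 0.226, 2.09, 0.571 and 0.745.

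Within the classes the members spread widely over the authors' clusters, which are numbered. MITF was highest in cluster 6 of the first experiment, at 585 CPM, and clusters 7 and 1 followed with 457 and 346 CPM. The other drug-susceptible clusters 3, 0, 10, 4 and 5 held 276, 270, 231, 226 and 209 CPM, of which 3 and 0, and 10 and 4, had overlapping intervals. The primed clusters 8, 9 and 2 came last with 90.4, 40.3 and 35.7 CPM, pooled over wells that filled these clusters unequally. The values of clusters 9 and 2 were 27.7 and 36.4 CPM in well 5, from 87 and 221 cells. In well 3 they were in the other order, at 84.3 and 63.7 CPM, but from 27 and 9 cells and with no interval given. In the order 8, 9 and 2, well 2 had 100, 32.8 and 32.0 CPM and well 8 had 76.0, 76.2 and 71.8 CPM. TFE3 was at 12.6 to 16.3 CPM in the 3 primed clusters and at 5.15 to 8.51 CPM in the 8 others, so these sets did not overlap.

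Cluster 10, a drug-susceptible cluster, stood out for the members of low level. It had the highest TFEB level, 5.94 CPM (5.004 to 6.99), where the next highest cluster had 2.83 CPM, and the highest PPARGC1A level, 12.1 CPM (10.8 to 13.6), with cluster 5 next at 9.36 CPM (8.60 to 10.2). PPARGC1A was lowest in the drug-susceptible cluster 4 and the primed cluster 9, at 2.41 and 2.51 CPM with overlapping intervals. Among primed cells it ranged from 2.51 CPM in cluster 9 to 7.04 CPM in cluster 2, so the close class means covered unlike clusters.

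**Figure D2:**
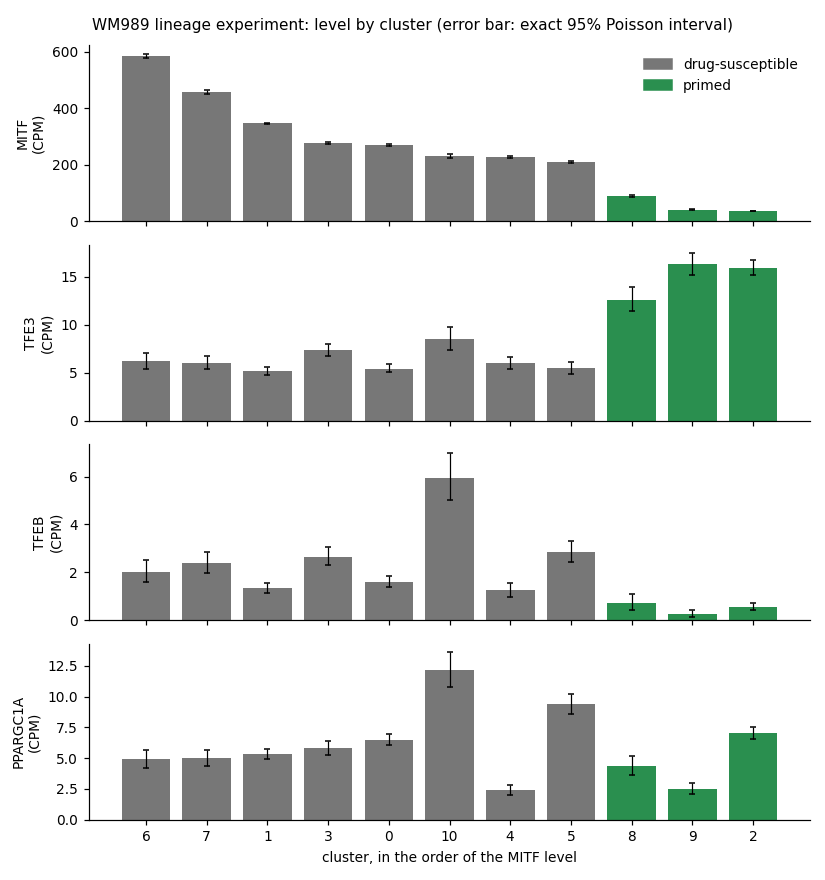
Levels of 4 members in the 11 clusters of the first WM989 experiment, in CPM on linear axes that start at 0, with clusters ordered by the MITF level. Bars are pooled levels, grey for drug-susceptible and green for primed clusters, with exact 95% Poisson intervals. Pooled over wells, MITF falls from 585 CPM in cluster 6 to 35.7 CPM in cluster 2. The wells filled the 3 green clusters unequally, and the order of their MITF values differed between wells, some of which had few cells in a cluster. TFE3 is highest in the 3 green bars, and TFEB and PPARGC1A peak in cluster 10.

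Across clusters TFE3 was low where MITF was high. Pearson's r of log2(CPM + 1) was -0.91 over the 11 clusters of the first experiment, -0.75 over 13 clusters of the treatment experiment and -0.93 over 4 clusters of WM983B. Between MITF and PPARGC1A it was 0.18, 0.01 and 0.72 in the same order. These values are descriptions, since the clusters of an experiment share libraries and the gaps between the classes weigh on them.

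**Figure D3:**
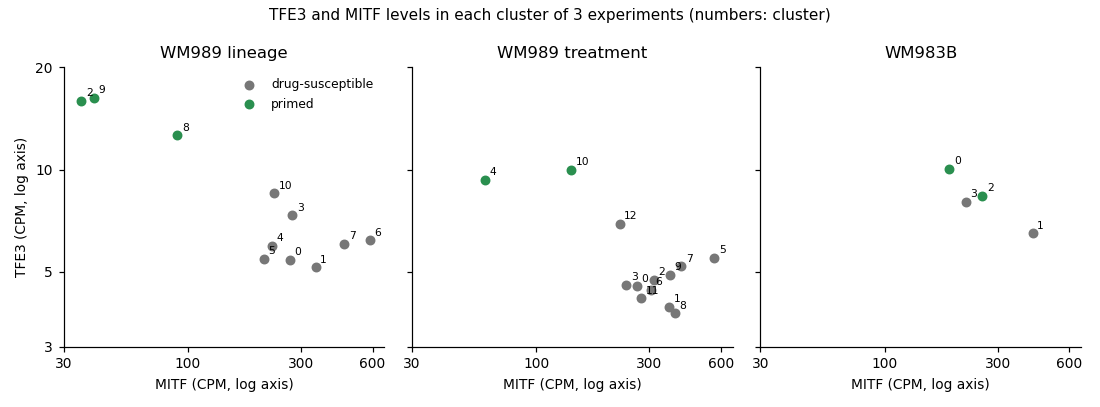
TFE3 against MITF, both in CPM on log axes, in each cluster of the 3 experiments, with the cluster number beside its point and primed clusters in green. The green points lie at the upper left in both WM989 experiments, with TFE3 from 9.31 to 16.3 CPM, while in WM983B the primed cluster 2 and the drug-susceptible cluster 3 lie close together.

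The genes whose pattern over the 11 clusters was most like a member's were sought among the 7021 genes that reached 20 CPM in any cluster. For MITF they were NPPC, RADIL, MLXIP, SGK3 and DHX33, with r from 0.97 to 0.98. RADIL, SGK3 and DHX33 kept an r of 0.96, 0.92 and 0.96 over the clusters of the treatment experiment, and NPPC and MLXIP had 0.67 and 0.02. For TFE3 they were PRICKLE2, TGM2, VEGFA, DAP and TTC39C, with r of 0.98 each, and in the treatment experiment these had 0.83, 0.86, 0.92, 0.80 and 0.19 in the same order. For TFEB they were SPSB1, ZC3H8, ZNF703, C12orf73 and SORBS3, at 0.95 to 0.97, of which none passed 0.63 in the treatment experiment. For PPARGC1A they were BCAR3, KLHL7, SEC14L1, WBP2 and TOLLIP, at 0.78 to 0.91, and there they had -0.07, 0.54, -0.22, 0.01 and 0.24 in the same order. As with the members, these are values over few clusters and the genes were picked for them.

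Of 14 known regulators of MITF, 4 were 2-fold or more lower and 4 were higher in primed WM989 cells of the first experiment, beside 7.91% and 13.7% of 13194 genes. SOX10, the neural crest factor that drives MITF, was at 130 CPM in drug-susceptible and 7.09 CPM in primed cells. LEF1, the Wnt pathway factor, went from 68.1 to 19.97 CPM, TFAP2A, a partner of MITF on melanocyte enhancers, from 81.9 to 30.2 CPM, and NFATC2 from 36.1 to 3.46 CPM. Of the 4 higher ones the AP-1 factor JUN went from 3.46 to 90.4 CPM, the Hedgehog factor GLI2 from 0.313 to 10.8 CPM, ZEB1, a factor of the mesenchymal state, from 4.64 to 15.5 CPM and SOX9 from 0.0107 to 4.88 CPM. The other 6 differed by less than 2-fold, with MC1R, the melanocortin receptor, at 67.0 and 46.6 CPM, POU3F2 at 20.1 and 12.2 CPM, ZEB2 at 96.7 and 144 CPM, CREB1 at 25.6 and 36.9 CPM, PAX3 at 18.4 and 25.9 CPM and ATF4 at 138 and 136 CPM. In WM983B, where MITF differed less, SOX10 was at 208 CPM in drug-susceptible and 192 CPM in primed cells, LEF1 at 49.1 and 53.1 CPM, TFAP2A at 109 and 68.0 CPM, NFATC2 at 17.8 and 33.6 CPM and JUN at 14.0 and 36.9 CPM.

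The lists of genes downstream moved unequally. Of 24 MITF targets 14 were 2-fold or more lower and 1, OCA2, was higher in primed cells of the first experiment, with a median log2 ratio of -2.004 beside 0.07 over all genes, of which 13.7% were higher and 7.91% lower. The melanosome gene PMEL was 32.3-fold, the pigment enzyme gene DCT 27.0-fold and the cell cycle kinase gene CDK2 7.68-fold lower, while the target BIRC7, an inhibitor of apoptosis, was at 202 and 184 CPM. In WM983B 15 of the 24 were 2-fold or more lower and none higher, with a median of -1.24, beside 1.37% and 2.87% of all genes there. Of 33 lysosome and autophagy genes 3 were higher (CTSB, WIPI1 and GABARAPL1) and 2 lower (GLA and CLCN7), with a median of -0.05, in the cells where TFE3 was higher and TFEB lower. Of 17 genes that control the retention of TFE proteins, RRAGD and FNIP2 were 5.86-fold and 3.71-fold lower and none was higher. Of the 22 genes of the PPARGC1A programme that reached 1 CPM, SOD2, a mitochondrial superoxide dismutase, was higher and PPARGC1B and UCP2 were lower, with a median of -0.26. The lists were chosen with earlier results of these data known.

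In the treatment experiment the 2 cultures of each treatment could be tested against the untreated pair. Over all cells MITF was lower with TGFB1 and PPARGC1A was higher with TGFB1 and lower with the PI3K inhibitor. With the TGF-β receptor inhibitor no member passed the threshold, an adjusted p of 0.05 in edgeR over 18389 genes. TFE3 and TFEB passed it under no treatment, and TFEC had too few counts to be tested. Of all genes, 16.3% were higher and 12.7% lower with TGFB1, 1.09% and 1.45% with the receptor inhibitor, and 5.83% and 6.83% with the PI3K inhibitor. Scaled by total counts in place of TMM, 15.9% instead of 46.0% of the PI3K inhibitor calls were higher, with no change in the calls of the members. The treatments share the untreated libraries, so their values are given side by side.

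MITF was at 323 and 366 CPM in the untreated libraries r1 and r2, at 232 and 275 CPM with TGFB1, at 315 and 319 CPM with the receptor inhibitor and at 336 and 368 CPM with the PI3K inhibitor. The TGFB1 and receptor inhibitor pairs lay below both untreated libraries, and the PI3K inhibitor pair overlapped them. The log2 difference was -0.46 ± 0.07 (SE, n = 2 libraries per treatment, adjusted p = 2.18e-05) with TGFB1, -0.10 ± 0.07 (adjusted p = 0.591) with the receptor inhibitor and 0.13 ± 0.07 (adjusted p = 0.247) with the PI3K inhibitor. In the same libraries 29.1 and 31.3% of cells were primed with TGFB1, against 2.26 and 4.47% untreated, 2.26 and 4.32% with the receptor inhibitor and 0.647 and 1.21% with the PI3K inhibitor. A sum over all cells does not tell a larger share of primed cells from less MITF per cell.

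In drug-susceptible cells alone MITF was at 326 and 374 CPM untreated and at 290 and 349 CPM with TGFB1, values that overlap, with a log2 difference of -0.15 ± 0.07 (adjusted p = 0.178). Within the 8 clusters that held at least 50 cells in all 4 libraries, the TGFB1 and the untreated libraries overlapped in 8 of 8. The clusters share the same libraries, so counts of clusters are not separate observations, and no share over all genes is given for them. In a comparison within replicates, which share a culture, added after seeing the data, MITF was lower with TGFB1 in both of them in 4 of these clusters, higher in both in 2 and of unlike sign in 2, and over all drug-susceptible cells it was lower in both. With the PI3K inhibitor the difference in drug-susceptible cells was 0.11 ± 0.07 (adjusted p = 0.356). G1 cells made up 43.6 and 44.1% of the PI3K inhibitor libraries and 34.0 and 32.7% of the untreated ones, and in G1 cells alone MITF was higher with the PI3K inhibitor, by 0.37 ± 0.07 on the log2 scale over all classes (adjusted p = 0.00115) and by 0.33 ± 0.07 in drug-susceptible cells (adjusted p = 0.00204). In G2M cells it was lower with the inhibitor in both replicates, at 419 and 446 CPM beside 426 and 479 CPM untreated, and in S cells higher in both, at 330 and 367 CPM beside 307 and 346 CPM. Within 7 clusters with enough cells it was lower with the inhibitor in both replicates in 2, higher in both in 2 and of unlike sign in 3. The splits by phase and by replicate were chosen after the data were seen. In drug-susceptible cells 8.56% of 17914 genes were higher and 6.32% lower with TGFB1, 1.22% and 1.59% with the receptor inhibitor, and 5.89% and 6.22% with the PI3K inhibitor.

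TFE3 was at 4.80 and 5.16 CPM untreated, 5.60 and 5.80 CPM with TGFB1, 4.47 and 5.15 CPM with the receptor inhibitor and 4.21 and 4.17 CPM with the PI3K inhibitor. Its log2 difference with TGFB1 was 0.18 ± 0.09 over all cells (adjusted p = 0.160) and -0.15 ± 0.10 in drug-susceptible cells (adjusted p = 0.388), so the sign depended on whether primed cells were counted. With the PI3K inhibitor both libraries lay below both untreated ones, and the difference of -0.15 ± 0.10 over all cells (adjusted p = 0.354) and of -0.13 ± 0.10 in drug-susceptible cells (adjusted p = 0.454) did not pass. Within clusters TFE3 was lower in both replicates in 4 of 8 with TGFB1 and in 5 of 7 with the PI3K inhibitor, and higher in both in none. These clusters share the same libraries, so the counts are not separate observations, and no share over all genes is given for them. The levels were a few CPM and varied, as with 5.92 and 2.79 CPM in cluster 8 under the PI3K inhibitor. TFEB was at 0.945 to 1.32 CPM in the 8 libraries, and its differences of -0.04 ± 0.17, -0.09 ± 0.17 and 0.08 ± 0.16 with TGFB1, the receptor inhibitor and the PI3K inhibitor were all smaller than their errors.

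PPARGC1A, the co-activator gene, had the largest difference of the members. Over all cells it was at 5.93 and 6.38 CPM untreated, 7.86 and 8.74 CPM with TGFB1, 4.85 and 5.76 CPM with the receptor inhibitor and 1.59 and 1.72 CPM with the PI3K inhibitor. Both TGFB1 libraries lay above and both PI3K inhibitor libraries below the untreated pair. The log2 difference was 0.42 ± 0.09 with TGFB1 (adjusted p = 0.000756), -0.20 ± 0.09 with the receptor inhibitor (adjusted p = 0.336) and -1.79 ± 0.10 with the PI3K inhibitor (adjusted p = 9.23e-11). In the PI3K inhibitor libraries 112 and 211 UMIs of the gene were counted, against 463 and 512 untreated.

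The same held in drug-susceptible cells, where PPARGC1A was at 5.92 and 6.38 CPM untreated, 9.40 and 10.5 CPM with TGFB1, 4.81 and 5.75 CPM with the receptor inhibitor and 1.57 and 1.71 CPM with the PI3K inhibitor. The log2 difference was 0.68 ± 0.09 with TGFB1 (adjusted p = 4.07e-06), -0.21 ± 0.09 with the receptor inhibitor (adjusted p = 0.312) and -1.80 ± 0.11 with the PI3K inhibitor (adjusted p = 3.05e-11). Within clusters the PI3K inhibitor libraries lay below both untreated ones in 7 of the 7 clusters with at least 50 cells in each library, and the TGFB1 libraries lay above in 7 of 8. Here too the clusters share libraries, and no share over all genes is given for these counts. In cluster 0, for instance, PPARGC1A was at 6.75 and 6.35 CPM untreated, 11.5 and 12.7 CPM with TGFB1 and 1.70 and 2.15 CPM with the PI3K inhibitor. Clusters 3 and 6 were mostly made of treated cells, cluster 3 holding 40.3 and 28.8% of the TGFB1 libraries and cluster 6 28.6 and 19.6% of the PI3K inhibitor libraries, and PPARGC1A was at 8.58 CPM in the former and 1.02 CPM in the latter. In G1 cells alone the fall with the PI3K inhibitor was -2.07 ± 0.14 over all classes (adjusted p = 7.62e-09), while the difference with TGFB1 was 0.08 ± 0.11 (adjusted p = 0.642) over all classes and 0.35 ± 0.11 (adjusted p = 0.0364) in drug-susceptible cells. TGFB1 libraries held 44.1 and 44.1% G1 cells.

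**Figure D4:**
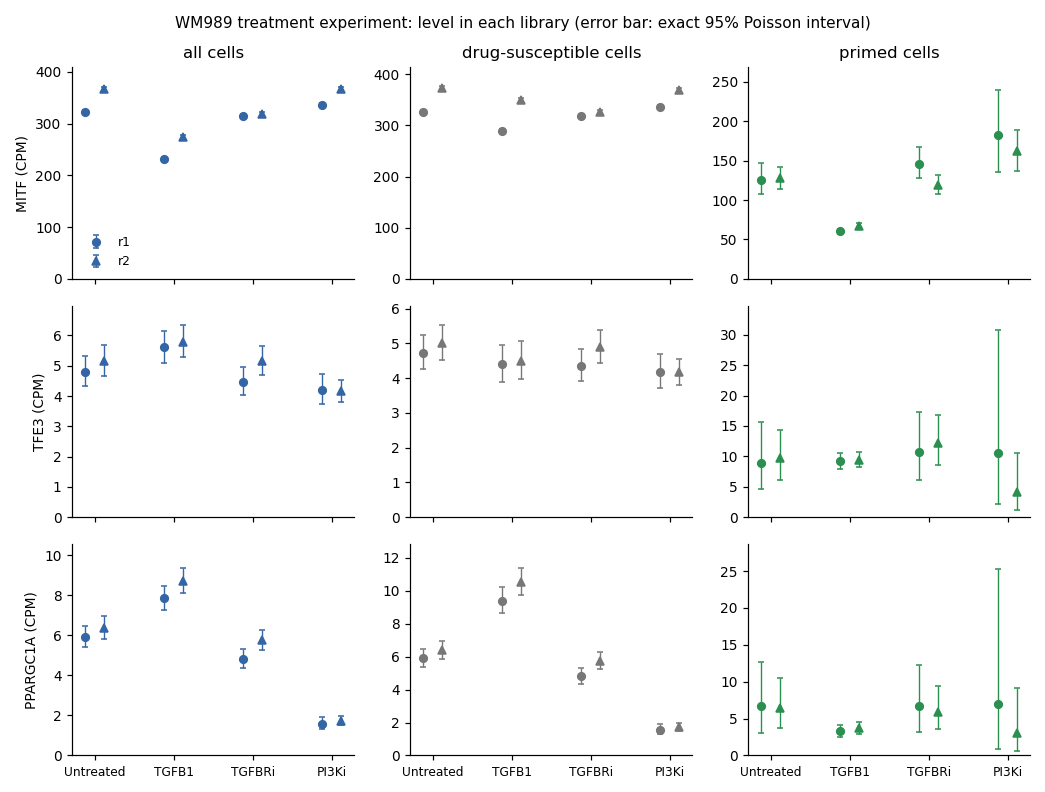
Levels of MITF, TFE3 and PPARGC1A in the 8 libraries of the treatment experiment, in CPM on linear axes that start at 0, over all cells, drug-susceptible cells and primed cells. Points are libraries (circles r1, triangles r2) with exact 95% Poisson intervals. PPARGC1A lies at 1.57 to 1.72 CPM with the PI3K inhibitor in the first 2 columns, and MITF lies at 60.4 and 67.5 CPM in the primed cells of the TGFB1 libraries.

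Primed cells were few outside TGFB1, with 94 and 165 in the untreated, 118 and 271 in the receptor inhibitor and 25 and 70 in the PI3K inhibitor libraries, against 1577 and 1757 with TGFB1. MITF was at 126 and 128 CPM in untreated primed cells, 60.4 and 67.5 CPM with TGFB1, 146 and 119 CPM with the receptor inhibitor and 182 and 162 CPM with the PI3K inhibitor. The log2 difference with TGFB1 was -0.91 ± 0.13 (adjusted p = 1.40e-06), and the other treatments did not pass the threshold, with adjusted p of 0.967 and 0.390. Of 10930 genes, 6.21% were higher and 7.09% lower with TGFB1, 0.0732% and 0.302% with the receptor inhibitor, and 0.467% and 1.32% with the PI3K inhibitor.

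The primed cells of these libraries lay in different clusters. Cluster 4 held 98.2 and 97.1% of the primed cells with TGFB1, but 5.32 and 3.64% of those untreated, which were nearly all in cluster 10. In cluster 4 MITF was at 58.5 and 63.2 CPM with TGFB1, and the untreated libraries had 5 and 6 cells there. In cluster 10 MITF was at 133 and 130 CPM untreated and at 166 and 218 CPM in the 29 and 51 cells with TGFB1. Within cluster 10 the TGFB1 values were thus above the untreated ones, opposite to the class as a whole.

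PPARGC1A in primed cells was at 6.71 and 6.44 CPM untreated and at 3.28 and 3.67 CPM with TGFB1, a difference of -0.82 ± 0.39 on the log2 scale that did not pass the threshold (adjusted p = 0.179). The untreated values rest on 9 and 16 UMIs. With the PI3K inhibitor the PPARGC1A ratio of primed to drug-susceptible cells was 4.46 and 1.82, from 25 and 70 primed cells. Without 1 library at a time the primed difference with this inhibitor ran from -1.11 to 0.022 on the log2 scale. The fall of PPARGC1A in drug-susceptible cells was thus not shown for primed cells. TFE3 was at 8.94 and 9.66 CPM untreated and 9.20 and 9.44 CPM with TGFB1 (0.08 ± 0.28, adjusted p = 0.909), so its higher level in primed cells was found with and without TGFB1, at 1.89 and 1.93 times the drug-susceptible level of the same library untreated and at 2.09 times or more in both TGFB1 libraries. With the receptor inhibitor it was 2.45 and 2.50 times, and with the PI3K inhibitor 2.51 and 0.996 times from 3 and 4 UMIs. TFEB had too few counts in primed cells to be tested.

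The TGFB1 difference was compared between the classes as an interaction in edgeR. The class was called after treatment, and cluster 4, with 98.2 and 97.1% of the primed cells with TGFB1, held 5 and 6 untreated cells. The paper reports that TGFB1 switched drug-susceptible lineages to the primed state. The term thus compares primed cells of mostly different clusters and does not measure a change within cells that were primed before treatment. The TGFB1 difference in primed minus that in drug-susceptible cells was -0.66 ± 0.11 on the log2 scale for MITF (adjusted p = 3.12e-07) and -1.42 ± 0.39 for PPARGC1A (adjusted p = 0.00487). TFE3 (0.30 ± 0.30, adjusted p = 0.660) and TFEB (-0.93 ± 0.96, adjusted p = 0.669) did not pass. PPARGC1A went from a primed to drug-susceptible ratio of 1.13 and 1.01 in the untreated libraries to 0.349 and 0.348 with TGFB1. Its call rests on both untreated libraries, since the adjusted p was 0.0610 without r1 and 0.183 without r2. Of 18502 genes, 5.49% had a higher and 4.49% a lower TGFB1 difference in primed cells, 0.238% and 0.313% for the receptor inhibitor and 0.351% and 0.859% for the PI3K inhibitor, under which no member passed. The classes were called from the same counts, which limits this test.

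The regulators of MITF moved in part with the treatments. With TGFB1 4 of the 13 tested rose and 1 fell over all cells, beside 16.3% and 12.7% of all genes. The endothelial marker PECAM1, higher in primed cells, also rose with TGFB1, by 3.02 ± 0.21 on the log2 scale over all cells (adjusted p = 1.07e-10), and its part in these and the following list counts was not tested. The Hedgehog factor GLI2 rose by 3.97 ± 0.18 on the log2 scale (adjusted p = 1.04e-13), JUN by 2.16 ± 0.15 (adjusted p = 1.19e-10) and LEF1 by 0.54 ± 0.06 (adjusted p = 7.90e-07), and POU3F2 fell (-0.25 ± 0.07, adjusted p = 0.00899). With the PI3K inhibitor JUN (-0.84), POU3F2 (-0.35) and the stress response factor ATF4 (-0.25) fell and ZEB1 (0.35) rose, beside 6.83% and 5.83% of all genes, and with the receptor inhibitor NFATC2 (0.47) rose and TFAP2A (-0.32) fell, beside 1.09% and 1.45%.

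Of the 24 MITF targets 15 fell and 2 rose with TGFB1, beside 12.7% and 16.3% of all genes, with a median log2 difference of -0.35 beside 0.01 over all genes. OCA2 (1.38) and BIRC7 (0.56) were those that rose. The largest falls were those of DCT (-0.92), the sialyltransferase gene ST3GAL6 (-0.90) and the melanosome gene MLANA (-0.79). In drug-susceptible cells alone 8 fell and 5 rose, beside 6.32% and 8.56% of all genes, with a median of -0.12. With the PI3K inhibitor 8 rose, beside 5.83% of all genes, among them PMEL (0.62), the pigment enzyme gene TYR (0.46) and MLANA (0.38), and DCT (-0.56) and GMPR (-0.26) fell, beside 6.83%, with a median of 0.10. IRF4, a pigmentation factor, was the target that fell with the receptor inhibitor (-0.58), and none rose, beside 1.45% and 1.09% of all genes.

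Of the 33 lysosome and autophagy genes 7 rose and 9 fell with TGFB1, beside 16.3% and 12.7% of all genes. The cathepsin gene CTSB (1.02), GLA (0.80) and GABARAPL1 (0.61) rose most, and WIPI1 (-0.54) and SGSH (-0.36) were among those that fell. In drug-susceptible cells 10 rose and 3 fell, beside 8.56% and 6.32%. With the PI3K inhibitor 6 rose, led by the autophagy receptor gene SQSTM1 (0.49), CTSF (0.39) and TPP1 (0.33), and 4 fell, beside 5.83% and 6.83% of all genes. The lysosome membrane genes LAMP1 (-0.49) and LAMP2 (-0.35) were among those that fell. With the receptor inhibitor TPP1 (0.26) rose and CTSD (-0.55), GLA (-0.44) and MAP1LC3B (-0.29) fell, beside 1.09% and 1.45% of all genes. Of the 17 genes that control the retention of TFE proteins FNIP2 (-0.51), RRAGB (-0.31) and RRAGD (-0.28) were among 4 that fell with TGFB1 and RRAGA (0.20) rose, beside 12.7% and 16.3% of all genes, TSC1 (-0.27) and RRAGD (-0.23) fell with the PI3K inhibitor, beside 6.83%, and none passed with the receptor inhibitor.

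The programme of PPARGC1A did not follow its gene in size. With the PI3K inhibitor, where the log2 difference of PPARGC1A was -1.79, 4 of the 24 genes tested fell and none rose, beside 6.83% and 5.83% of all genes, with a median of -0.08. The largest of these falls were those of its nuclear receptor partner ESRRA (-0.33), the respiratory chain gene SDHA (-0.30) and the ATP synthase gene ATP5F1B (-0.26). With TGFB1, where PPARGC1A rose, 9 fell, among them PPARGC1B (-0.42), UCP2 (-0.40) and ATP5F1B (-0.30), and 1 rose, the adipocyte factor PPARG (1.97), beside 12.7% and 16.3% of all genes. In drug-susceptible cells 2 rose and 1 fell with TGFB1, beside 8.56% and 6.32% of all genes. ESRRA (-0.30) was the gene that fell with the receptor inhibitor, beside 1.45% of all genes.

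Chromatin was open at the starts of the expressed members in all sorts. Of the 11 start sites 7 lay in a peak in all 12 libraries, against 43.0% of 34961 RefSeq start sites, and 48.9% of those lay in a peak in none. Neither start of TFEC had a peak within 1 kb in any library, and the start of MITF next to the farthest upstream, which is not printed, had a peak within 1 kb but not over it in 12 libraries. At the middle start of TFEB 10 of 12 libraries had a peak, and the 3 starts of this gene lie so close that some libraries have 1 peak over several of them. Peak heights are the fold enrichment over local background given by the peak caller.

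The melanocyte start of MITF, the window with the CRE and the TCF/LEF site printed above, had its highest peaks in the marker-negative sort. Its fold enrichment was 89.2, 84.8 and 98.7 in the negative libraries (90.9 ± 7.1, SD, n = 3), 54.6, 57.7 and 66.6 in EGFR-high (59.6 ± 6.2), 55.3, 63.9 and 76.2 in NGFR-high (65.1 ± 10.5) and 61.3, 56.2 and 72.0 in EGFR/NGFR-high libraries (63.2 ± 8.0). All 3 negative libraries lay above all 9 others. Each marker-high sort against the negative one reached the smallest p that 3 against 3 allow (exact two-sided permutation test, p = 0.1, adjusted p = 0.525 over 21 tests), and over all 15400 groupings of the 12 libraries into 4 sorts the exact p was 0.0142, with an adjusted p of 0.0991 over the 7 starts with a peak in every library. Of 152014 regions found in at least 3 libraries, 4.51% had the negative libraries above all others and 3.77% below.

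The other starts showed no such separation. At the far upstream start of MITF the fold enrichment was 286 ± 4.1 in negative, 266 ± 24 in EGFR-high, 272 ± 2.5 in NGFR-high and 267 ± 20 in EGFR/NGFR-high libraries (SD, n = 3, exact permutation p = 0.451 over the 4 sorts), and there too the negative libraries lay above the NGFR-high ones (exact permutation p = 0.1). At the start of TFE3, whose transcripts were higher in primed cells, it was 48.5 ± 2.6, 49.0 ± 7.7, 52.3 ± 5.0 and 49.9 ± 7.3 in the same order (exact permutation p = 0.862). The upstream start of PPARGC1A had 22.2 ± 2.9, 26.6 ± 2.2, 23.3 ± 2.0 and 31.0 ± 8.9 (exact permutation p = 0.139), and its second start 8.17 ± 3.8, 6.59 ± 1.6, 6.23 ± 0.72 and 7.39 ± 1.8 (exact permutation p = 0.730). For TFEB the first start gave an exact permutation p of 0.0487, adjusted to 0.170, with 18.1 ± 1.7 in EGFR-high and 26.1 ± 3.7 in EGFR/NGFR-high libraries around 22.5 ± 3.2 in negative ones, and the third start gave 0.287.

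**Figure D5:**
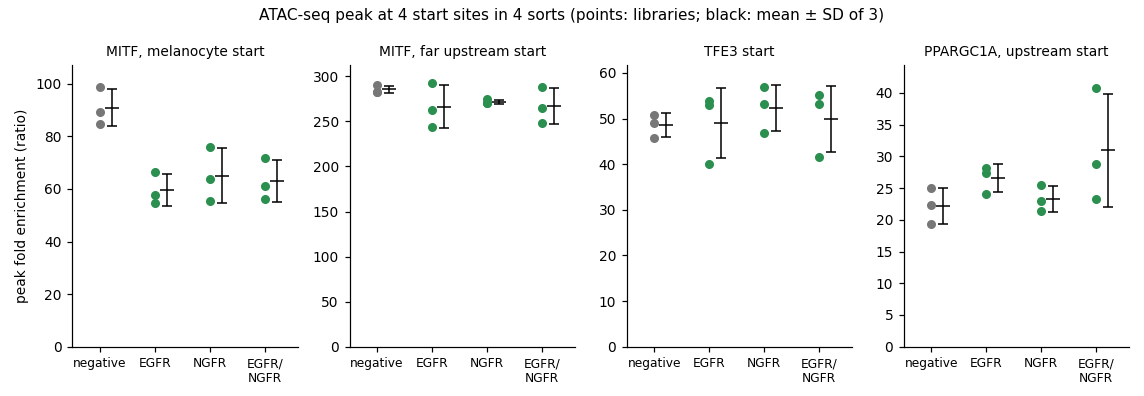
Peak fold enrichment, a ratio over local background on linear axes that start at 0, at 4 start sites in the 4 sorts of WM989 cells. Points are libraries, grey for the marker-negative and green for the marker-high sorts, and black marks are the mean ± SD of 3. At the melanocyte start of MITF the 3 grey points, from 84.8 to 98.7, lie above all green points, and at the other 3 starts the range of the grey points overlaps that of the green ones.

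MITF with 10 kb on each side held 97 regions found in at least 3 libraries, of which 33 were in all 12. The region over the melanocyte start was the one of the 97 where the negative libraries lay above all others, with a library that has no peak counted as 0. In 6 regions, all within introns between positions 69806499 and 69890590 of chromosome 3 and so between the upstream starts and the melanocyte start, the negative libraries lay below all others. These are 1 and 6 of 97 regions, beside 4.51% above and 3.77% below over all regions. In chr3:69872704-69873837, for example, 1 of 3 negative libraries had a peak and the mean fold enrichment was 1.45, against 18.8 in EGFR-high, 10.9 in NGFR-high and 15.6 in EGFR/NGFR-high libraries. TFE3 held 3 regions and TFEB, TFEC and PPARGC1A 6, 13 and 13, with 1 region in each of the last 3 genes where the negative libraries lay above all others and none where they lay below. The upstream start of PPARGC1A, at position 24472905 of chromosome 4, lies outside the gene span searched, so its peak is not among these regions.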

How the data were processed

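Per the labels and the methods, single cells were run on the 10x 3′ kit and aligned with Cell Ranger by the authors, who deposited UMI counts per gene and cell, not normalized, after dropping cells with too few or too many genes or a high mitochondrial percentage. Doublets were treated by the upper limit on genes alone. Reads were aligned to hg38, and clusters were made on integrated data where replicates differed. The deposited cell annotation gives clusters, the primed or drug-susceptible call, cell cycle phase and the percent of mitochondrial counts. The versions of Cell Ranger and of the gene annotation are not given in the sources used here. ATAC reads were aligned to hg38 with Bowtie2 2.3.4.1, duplicates were removed, Tn5 insertions were inferred, and the authors called peaks per library with MACS2 2.1.1.20160309. Each deposited peak list gives the fold enrichment ratio over local background, −log10 p and −log10 q.

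The members and all gene lists were chosen with earlier results of these data known. The lists hold 14 MITF regulators, 24 MITF targets, 33 lysosome and autophagy genes, 17 genes that control the retention of TFE proteins, 25 genes of the PPARGC1A programme, 5 melanocyte markers and 9 markers of other cells. By the rule for named genes, a list's 3 largest called changes per treatment and direction are given, further the regulators that reach 20 CPM, and per member the 5 genes closest in r. A gene that this rule names is not reported here. List genes named by class beyond this were picked after their values were seen.

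UMI counts were summed per library (treatment experiment) and tested in edgeR 4.0.16 (R 4.3.3) by the quasi-likelihood test with TMM, its filter on low counts and Benjamini-Hochberg adjustment over all genes tested. The model held treatment and replicate, since 1 culture per replicate was split over the treatments. The r2 minus r1 differences of treatments correlated at 0.256 to 0.365 over 18389 genes. An interaction model compared classes. The 2 libraries per treatment are separate cultures of 1 clone, so p-values cover the spread between these. Intervals are exact, at 95%, and cover counting error only. Peaks at the start sites were compared by exact two-sided permutation tests over libraries. Alternatives were DESeq2 1.42.0, total counts, no filter, no replicate block, each library left out and, chosen after seeing the data, G1 cells alone. Figures and sums used Python 3.11.15, pandas 2.3.3 and scipy 1.17.1. The check on simulated counts is not quoted.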

Additional observations from a re-analysis of the deposited data

Results flagged for a closer look

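The TGFB1 difference in MITF was unlike between the classes, with a value in primed minus drug-susceptible cells of -0.66 on the log2 scale (edgeR interaction term, adjusted p = 3.12e-07, 2 libraries per treatment). MITF was lower with TGFB1 in primed cells of both libraries. Cluster 4 held 98.2 and 97.1% of the primed cells with TGFB1 and 5.32 and 3.64% of those untreated, and MITF in cluster 10 was at 166 and 218 CPM with TGFB1 and at 133 and 130 CPM untreated. The TGFB1 difference in PPARGC1A was also unlike between the classes, by -1.42 (edgeR interaction term, adjusted p = 0.00487). Its level was higher in drug-susceptible and lower in primed cells in both TGFB1 libraries. The lower value in primed cells did not itself pass (-0.82, adjusted p = 0.179) and rests on 9 and 16 untreated UMIs, and the difference between the classes no longer passed without untreated r1 (adjusted p = 0.0610) or r2 (adjusted p = 0.183). In cluster 10 it rests on 2 and 8 UMIs with TGFB1. The part of the cluster shares in either value was not tested. The class was called after treatment, so neither value measures a change within cells that were primed before it.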

How the results depend on the processing

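Counts of genes past the threshold depended on the setting, and some calls of members did too. Leaving out 1 library at a time gave 3164 to 6377 genes with TGFB1, 168 to 1146 with TGFBRi and 719 to 3298 with PI3Ki over all cells (5324, 466 and 2328 with all libraries), 988 to 3722, 206 to 1247 and 632 to 3286 in drug-susceptible cells (2665, 503 and 2170), 584 to 1726, 17 to 63 and 96 to 239 in primed cells (1454, 41 and 195), and 825 to 2125, 49 to 111 and 136 to 257 for the interaction (1847, 102 and 224). A lone library of a treatment was assumed to vary like the others. Without the replicate block the counts were 40 for TGFBRi and 649 for PI3Ki over all cells, 1189, 47 and 570 for TGFB1, TGFBRi and PI3Ki in drug-susceptible cells, 9 for TGFBRi and 87 for PI3Ki in primed cells, and 775, 4 and 7 for the interactions with treatment in place of library. The block changed no call of a member. DESeq2 gave 326 for TGFBRi in drug-susceptible cells, 693 for TGFB1 and 16 for TGFBRi in primed cells, and 763 and 19 for the interactions of TGFB1 and TGFBRi. Total counts in place of TMM gave 3523 for PI3Ki over all cells and 3408 in drug-susceptible cells. With this scaling the median of all genes moved from 0.0026 to -0.10 with PI3Ki over all cells and from 0.045 to -0.13 for the TGFB1 and -0.039 to 0.11 for the PI3Ki interaction, and the share of higher calls went from 46.0 to 15.9% over all cells, from 48.7 to 17.1% in drug-susceptible cells, from 46.7 to 34.3% with TGFB1 in primed cells, and from 55.0 to 22.3% and 29.0 to 74.3% for the interactions of TGFB1 and PI3Ki. No filter gave 748 for TGFBRi over all cells, and G1 cells alone gave 148 over all and 210 in drug-susceptible cells. The causes were not tested.

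Among the members, MITF with TGFB1 stayed between -0.50 and -0.42 over all cells and between -1.03 and -0.80 in primed cells without 1 library, and PPARGC1A between 0.37 and 0.45 with TGFB1 and between -1.84 and -1.75 with PI3Ki. In G1 cells alone PPARGC1A with TGFB1 was 0.08 over all classes and was no longer called. MITF with PI3Ki became called there, at 0.37 over all classes and 0.33 in drug-susceptible cells. The interaction call of PPARGC1A with TGFB1 was lost without either untreated library. Values that were not called changed sign: TFE3 with TGFB1 was -0.0072 in G1 cells and -0.0081 in primed cells with total counts, TFEB with PI3Ki was -0.024 with total counts and -0.14 in G1 cells, and TFEB in WM983B had a ratio of 1.07 in G1 cells. Without 1 library TFEB over all cells ran from -0.24 to 0.13 (TGFB1), -0.29 to 0.080 (TGFBRi) and -0.12 to 0.25 (PI3Ki), TFE3 with TGFBRi from -0.12 to 0.046 over all and -0.13 to 0.0064 in drug-susceptible cells, and in primed cells MITF with TGFBRi ran from -0.078 to 0.18, TFE3 with PI3Ki from -1.23 to 0.090 and PPARGC1A with PI3Ki from -1.11 to 0.022. On the −log10 q scale the difference at the far upstream start of MITF was 8.13 for NGFR-high and 100.3 for EGFR/NGFR-high, opposite in sign to the fold enrichment. Same-numbered ATAC libraries correlated at -0.00028 to 0.174 in their deviations (median 0.089) and others at -0.157 to 0.040 (median -0.039), a hint of a shared replicate effect. Since not every pair passed 0.1, the numbers were not taken as pairs. With a replicate block by sign flips 0 pairwise peak tests passed the threshold, which they cannot reach with 3 pairs, and without all libraries of 1 number the adjusted p over the 4 sorts was 0.267 or higher.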
